A study of Mus musculus with 6 samples.

Results

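Transduced C2C12 myoblasts in which MyoD was induced with doxycycline (MyoD + Dox, 2 arrays) were compared with C2C12 myoblasts that carried no virus but also received doxycycline (Control, 2 arrays). The comparison was chosen by the labels of the arrays and covers all 19505 named genes on 4 of the 6 arrays. The other 2 arrays, transduced cells without doxycycline (uninduced), are given beside the results and helped to estimate the spread. C2C12 is an immortalised mouse myoblast line, and the labels give the cells as muscle myoblasts that had been placed in differentiation conditions. The MyoD + Dox cells carried a lentivirus with a MyoD cDNA under a doxycycline-responsive promoter and, by the study's methods, had been selected with blasticidin. The Control cells were not transduced, and the labels and methods do not say whether they were given blasticidin. Virus and induced MyoD therefore differ together between the groups, as selection may, and cannot be told apart, whereas doxycycline, the serum switch and the third day of differentiation are shared. Nothing in the labels says that the 2 arrays of a group were separate cultures, so the p-values given here measure only the spread between these arrays.

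MyoD is a basic helix-loop-helix transcription factor that pairs with E proteins, binds E-box sequences and can turn other cell types into muscle. In C2C12 cells it acts together with its relatives Myf5 and myogenin and with the Mef2 factors. Lowered serum brings these cells out of the cell cycle and they fuse into multinucleated myotubes, while a share of cells stays behind as undifferentiated, single reserve cells. Id proteins bind E proteins without binding DNA and so hold MyoD back.

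Expression was read on Clariom S mouse arrays, and values are log2 of the deposited signal intensity, so that a difference of 1 is a 2-fold difference. Array medians lay between 45.4 and 48.4 on the linear scale, and 9355 to 9546 genes per array exceeded the background probe sets, which stood at a log2 signal of 6.01 to 6.15. All 10 skeletal muscle markers were above background on all arrays. The 2 Control arrays stood apart from each other. Across all genes they had a median absolute log2 difference of 0.35, against 0.24 between the MyoD + Dox arrays, and 2921 genes differed at least 2-fold between the Control arrays, against 589 (3.02%) between the MyoD + Dox arrays. Each array is therefore given separately below.

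With limma, 0 of 19505 genes passed an adjusted p of 0.05 between MyoD + Dox and Control, and the lowest adjusted p rounded to 1. At an unadjusted p under 0.05, 312 genes were higher (1.60%) and 261 were lower (1.34%), together 2.94% of the genes. In what follows a gene "passed" when this unadjusted p was under 0.05, which ranks the genes and is not a call after adjustment. Both MyoD + Dox arrays lay above both Control arrays for 2706 genes (13.9%) and below both for 2789 genes (14.3%), and for 5886 genes (30.2%) both lay between the Control arrays. Counts within the gene lists below are to be read against these shares and those of the genes that passed. An exact permutation test of 2 arrays against 2 cannot give a two-sided p below 0.333 and was not run for single genes. Leaving out 1 array moved these counts. Without Control 1, the higher genes numbered 1473 and the lower genes 1212 before adjustment, and 169 genes (0.866%) passed after it. Of those 169, 130 had the MyoD + Dox mean on the other side of Control 1, and 10 passed when both Control arrays were kept.

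Myod1, the gene carried by the virus, was the first check of the labels. Its log2 signal was 8.72 and 10.68 on the Control arrays, 9.0 and 7.91 on the uninduced arrays and 11.51 and 12.54 on the MyoD + Dox arrays. Both MyoD + Dox arrays were above the other 4 arrays, and the nearest Control array was Control 2. The log2 difference between MyoD + Dox and Control was 2.33 (SE 0.75, unadjusted p = 0.0223). Without Control 1 it was 1.34 and no longer passed, nor did it pass without MyoD + Dox 2. The labels and methods do not say whether this probe set detects the viral cDNA, the endogenous mRNA or both.

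Of the other myogenic regulatory factors, only Myf5 both passed and was above background. Among the 8 myogenic regulatory and Mef2 genes, Myod1 and Mef2c passed as higher and Myf5 and Myf6 as lower. Over all genes 1.60% passed as higher and 1.34% as lower. Above background on all arrays were 6 of the 8. Myf5, which acts before and beside MyoD in myoblasts, was lower in MyoD + Dox. Its log2 signal was 9.48 and 9.14 on the Control arrays, 10.28 and 9.39 on the uninduced arrays and 8.08 and 7.89 on the MyoD + Dox arrays, a difference of -1.33 (SE 0.34, unadjusted p = 0.00827) that passed with any one of the 4 arrays left out. Myogenin, the factor that drives terminal differentiation, did not separate the groups. Its Myog signal was 13.88 and 16.50 in Control and 15.11 and 15.18 in MyoD + Dox, between the Control arrays. Myf6 was below background on every array, so its level cannot be compared.

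Of the 4 Mef2 genes, which encode partners of MyoD on muscle promoters, Mef2c stood out. Its log2 signal was 10.18 and 7.96 in Control, 10.03 and 6.79 in the uninduced cells and 12.76 and 13.28 in MyoD + Dox. Even the higher Control array lay 2.59 below the lower MyoD + Dox array. The log2 difference was 3.95 (SE 1.18, unadjusted p = 0.0164), although it did not pass without either MyoD + Dox array. Mef2a, at 14.66 and 15.89 in Control and 15.44 and 15.94 in MyoD + Dox, and Mef2d, at 13.06 and 14.93 against 13.93 and 14.49, overlapped between the groups. Mef2b was below background on every array.

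Among the genes that passed, 181 higher (0.928% of all) and 112 lower (0.574%) also had groups that did not overlap and a brighter group above background on both arrays. The 15 with the highest differences had log2 differences of 2.19 to 4.57 and unadjusted p-values of 0.000970 to 0.0446. Their median difference was 2.97 from Control 1 and 2.30 from Control 2. In 14 of them both uninduced arrays also lay below both MyoD + Dox arrays, the exception being Rtp4. Their sign was the same under all 16 alternatives. They were chosen as genes whose groups do not overlap, so leaving out an array could not turn their sign.

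**Figure D1:**
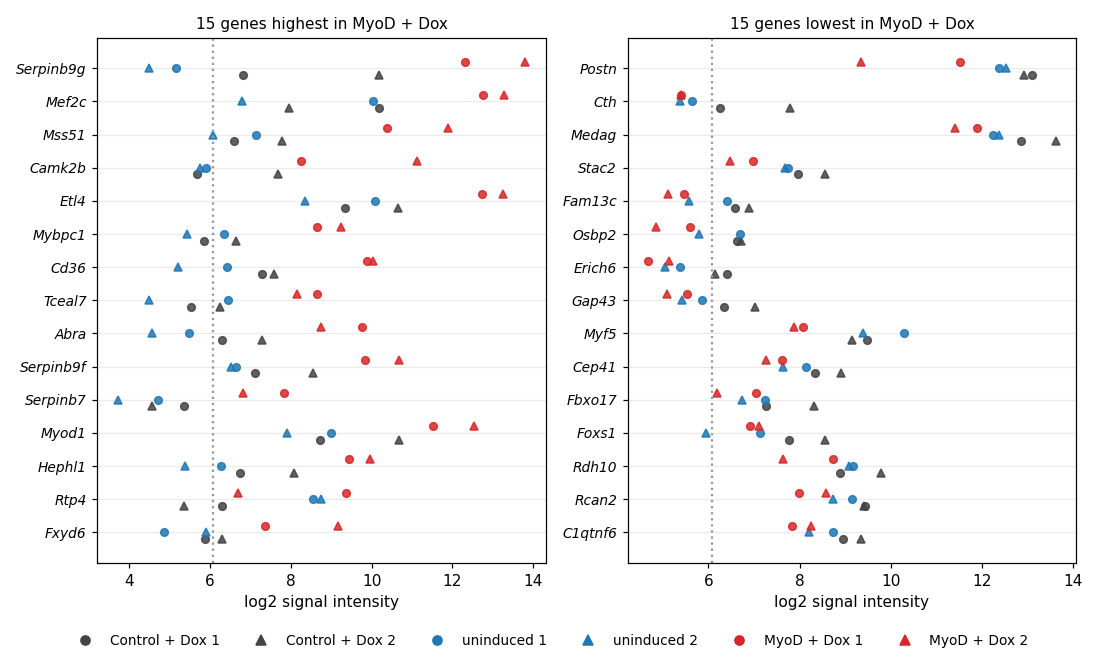
Log2 signal intensity (horizontal axes) of the 15 genes highest and the 15 genes lowest in MyoD + Dox against Control, for each of the 6 arrays. Black symbols are Control, blue uninduced and red MyoD + Dox, circles are the first array of a group and triangles the second, and the dotted line is the mean background of the arrays. The red symbols of each gene lie on one side of both black ones, while the distance between the 2 black symbols differs from gene to gene, widest at 3.36 for Serpinb9g on the left.

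The gene with the highest difference was Serpinb9g, a member of a mouse cluster of serpins, inhibitors of serine proteases related to the granzyme B inhibitor. It had a log2 signal of 6.81 and 10.18 in Control, 5.15 and 4.49 in the uninduced cells and 12.32 and 13.80 in MyoD + Dox. The log2 difference was 4.57 (SE 1.11, unadjusted p = 0.00693), and 2.89 without Control 1. Serpinb9f followed the same order, with 7.12 and 8.56 in Control and 9.83 and 10.68 in MyoD + Dox, a difference of 2.42 (SE 0.53). Serpinb9d, chosen here after its values were seen, had 7.12 and 7.39 in Control and 8.90 and 8.92 in MyoD + Dox, and passed neither without Control 1 nor without either MyoD + Dox array. These genes are closely related copies, and signal from 1 transcript on another's probes cannot be told apart from a difference in each. Serpinb7, a serpin on another chromosome, was below background on both Control arrays and at 7.82 and 6.81 in MyoD + Dox, at least 2.40-fold higher.

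Among the 15 was Mss51, a gene of skeletal muscle linked to mitochondrial metabolism, which had 6.59 and 7.78 in Control, 7.14 and 6.07 in the uninduced cells and 10.38 and 11.90 in MyoD + Dox. Its log2 difference of 3.95 (SE 0.67, unadjusted p = 0.00126) passed with any one array left out. Mybpc1, the slow form of myosin-binding protein C in the thick filament, had 5.84 and 6.64 in Control, of which the first is below background, and 8.64 and 9.25 in MyoD + Dox. Its log2 difference was 2.70 (SE 0.44, unadjusted p = 0.000970) and it too passed with any one array left out. Abra, an actin-binding protein of striated muscle, had 6.29 and 7.28 in Control and 9.77 and 8.74 in MyoD + Dox (log2 difference 2.47, SE 0.53). Camk2b, a calcium/calmodulin-dependent kinase subunit, had 5.67 and 7.69 in Control, of which the first is below background, and 8.24 and 11.13 in MyoD + Dox. Its difference of 3.01 was 1.56 without MyoD + Dox 2 and 2.0 without Control 1, and it passed in neither case.

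Cd36, the fatty acid transporter of the muscle and fat cell membrane, was the most even of the group. Its log2 signal was 7.29 and 7.57 in Control, 6.42 and 5.20 in the uninduced cells and 9.89 and 10.04 in MyoD + Dox. The log2 difference was 2.53 (SE 0.41, unadjusted p = 0.00100) and stayed between 2.39 and 2.67 with each array left out. Etl4, a gene of intervertebral disc development, had 9.33 and 10.64 in Control and 12.72 and 13.25 in MyoD + Dox, a difference of 3.0 (SE 0.68). Hephl1, a ferroxidase, had 6.75 and 8.07 against 9.43 and 9.96. For Fxyd6 and Tceal7, given next, the value on Control 1 is below background, so their differences are not exact sizes. Fxyd6, a regulator of the sodium pump, had 5.88 and 6.29 against 7.37 and 9.18, and its difference of 2.19 was 1.28 and did not pass without MyoD + Dox 2. Tceal7 had 5.52 and 6.24 against 8.64 and 8.16, and its difference of 2.52 did not pass without MyoD + Dox 1.

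By the gap between the nearest arrays of the groups, 32 genes were at least 1 log2 unit higher in MyoD + Dox (0.164% of genes), 26 of them above background on both MyoD + Dox arrays, and 5 genes were at least 1 unit lower (0.0256%). The 8 widest upward gaps include Rbfox1, a splicing factor of muscle and neurons, which was below background on both Control arrays and at 7.13 and 7.67 in MyoD + Dox, at least 2.54-fold higher. Smaller but narrow differences were found in genes that were chosen here after their values were seen. Lyrm4, a partner in iron-sulphur cluster assembly, had 11.20 and 10.56 in Control against 12.68 and 12.75 in MyoD + Dox. Mpp6, a membrane scaffold protein, had 9.03 and 9.13 against 10.62 and 11.05. Fat1, a large protocadherin, had 8.49 and 8.08 against 9.79 and 10.36. Pcx, the mitochondrial pyruvate carboxylase, had 7.30 and 7.31 against 8.37 and 8.67.

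The windows from 250 bases before to 50 bases after the transcript start (RefSeq, build GRCm38.p6) of a few of these genes are shown because MyoD binds E-boxes, whose letters are CANNTG, and because their signals separated the groups on all 4 arrays. All E-boxes are in capitals, read on the gene's own strand, and CANNTG reads the same way on both strands. Mybpc1 (chr10:88605103-88605402, minus strand) holds 3, of which the first, CAGCTG, is a form that MyoD favours. Fxyd6 (chr9:45369935-45370234, plus strand) holds CAGGTG and CAGCTG. Cd36 (chr5:17835847-17836146, minus strand) holds 2 of other forms. Myf5, which was lower in MyoD + Dox (chr10:107486085-107486384, minus strand), holds none.
Mybpc1: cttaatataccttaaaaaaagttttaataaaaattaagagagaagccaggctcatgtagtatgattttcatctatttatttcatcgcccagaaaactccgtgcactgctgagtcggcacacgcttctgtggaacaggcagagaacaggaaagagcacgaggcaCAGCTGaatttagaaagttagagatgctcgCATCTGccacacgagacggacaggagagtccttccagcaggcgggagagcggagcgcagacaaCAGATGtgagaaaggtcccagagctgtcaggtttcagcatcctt
Fxyd6: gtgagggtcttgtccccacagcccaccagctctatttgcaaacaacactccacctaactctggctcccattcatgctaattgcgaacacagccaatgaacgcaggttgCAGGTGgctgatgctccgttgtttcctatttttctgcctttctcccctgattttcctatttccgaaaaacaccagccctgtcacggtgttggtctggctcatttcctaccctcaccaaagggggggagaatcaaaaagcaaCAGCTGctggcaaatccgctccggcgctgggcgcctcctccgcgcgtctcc
Cd36: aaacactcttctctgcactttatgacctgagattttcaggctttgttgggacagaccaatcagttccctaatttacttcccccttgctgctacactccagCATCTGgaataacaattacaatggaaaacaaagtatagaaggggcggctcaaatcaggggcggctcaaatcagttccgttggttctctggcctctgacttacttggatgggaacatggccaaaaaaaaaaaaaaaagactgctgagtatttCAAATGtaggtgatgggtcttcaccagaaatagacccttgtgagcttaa
Myf5: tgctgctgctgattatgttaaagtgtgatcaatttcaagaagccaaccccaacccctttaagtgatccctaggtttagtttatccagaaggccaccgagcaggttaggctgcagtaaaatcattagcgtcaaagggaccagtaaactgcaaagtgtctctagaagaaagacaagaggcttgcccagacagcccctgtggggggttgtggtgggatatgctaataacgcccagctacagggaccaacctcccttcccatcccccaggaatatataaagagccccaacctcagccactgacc

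An E-box is common in such windows and these are a description of the letters, not of binding. Of all 32851 windows, 72.3% hold CANNTG, 16.3% hold CAGCTG and 20.2% hold CAGGTG on either strand. A window was given for 12 of the 15 highest genes, of which 8 (66.7%) hold CANNTG in at least 1 window, against 72.1% of the 15691 measured genes with a window. For the 15 lowest genes it was 7 of 10. The windows shown above do not stand for the rest, because CAGCTG or CAGGTG was held by 3 of the 12 highest genes (25%) and by 5 of the 10 lowest (50%), against 35.3% of the measured genes with a window. Mef2c has 3 windows, of which 2 hold an E-box, and neither Mss51 nor either window of Postn holds one.

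The 15 lowest genes had log2 differences of -2.57 to -1.11 and unadjusted p-values of 0.00202 to 0.0467. In 9 of them both uninduced arrays lay above both MyoD + Dox arrays. By the same t-test on the 4 arrays, 3 of the 15 had an unadjusted p under 0.05. The sign of all 15 was the same under all 16 alternatives, but their choice without overlap meant that leaving out an array could not turn it. With any one of the 4 arrays left out, 8 of the 15 passed. The lowest was Postn, which encodes periostin, a matrix protein of fibroblasts and of injured muscle. It had a log2 signal of 13.09 and 12.91 in Control, 12.36 and 12.53 in the uninduced cells and 11.51 and 9.34 in MyoD + Dox. The 2 MyoD + Dox arrays differed by more than the other pairs, and the log2 difference of -2.57 (SE 0.67, unadjusted p = 0.00922) was -1.48 without MyoD + Dox 2.

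Medag, a gene linked to fat cell differentiation, had 12.85 and 13.61 in Control, 12.23 and 12.36 in the uninduced cells and 11.88 and 11.40 in MyoD + Dox (log2 difference -1.59, SE 0.33, unadjusted p = 0.00307). Stac2, an adaptor of voltage-gated calcium channels, had 7.96 and 8.57 against 6.99 and 6.47, a difference of -1.53 (SE 0.30). Both passed with any one array left out, as did Rcan2, an inhibitor of calcineurin, with 9.43 and 9.41 against 7.98 and 8.59. Zkscan5, a zinc finger factor among the 8 widest downward gaps, had the narrowest spread, at 7.48 and 7.32 in Control and 6.23 and 6.38 in MyoD + Dox.

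Others of the 15 were dim. Fam13c, at 6.59 and 6.89 in Control and below background on both MyoD + Dox arrays, was at least 1.53-fold lower, Osbp2 at least 1.45-fold lower and Gap43, a growth cone protein, at least 1.47-fold lower. Cth, the enzyme that makes cysteine from cystathionine, was at 6.26 and 7.78 in Control and below background in MyoD + Dox, at least 1.85-fold lower. Cth was also below background in the uninduced cells, at 5.65 and 5.37. Its fitted log2 difference of -1.62 was -0.86 without Control 2, and it did not pass without either MyoD + Dox array. The 5 genes with a downward gap of at least 1 log2 unit were Postn, Fam13c, Myf5, Osbp2 and Erich6. Of these, Fam13c, Osbp2 and Erich6 were below background on both MyoD + Dox arrays, so the size of their gaps is not measured. Erich6, at 6.41 and 6.15 in Control, was at least 1.11-fold lower. Erich6 and Gap43 were below background on both uninduced arrays as well.

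Most genes that differed between the Control arrays did not separate the groups. Of the 2921 genes at least 2-fold apart in the Control pair, 2310 (79.1%) had both MyoD + Dox arrays between them, 66 had both above and 62 both below. Because these genes were chosen for a wide Control pair, a high share between its arrays follows largely from that choice. Where Control 2 was higher, in 1400 genes, the MyoD + Dox mean lay a median 46.7% of the way from Control 1 to Control 2, and where it was lower, in 1521 genes, 38.2% of the way. The MyoD + Dox mean was at least 2-fold above Control 1 for 574 genes (2.94%) and above Control 2 for 904 (4.63%), and at least 2-fold below Control 1 for 435 (2.23%) and below Control 2 for 642 (3.29%). The counts therefore differed with the Control array taken.

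The widest differences within the Control pair show what this means for single genes. Cxcl5, a neutrophil chemokine, had 16.01 on Control 1 and 4.17 on Control 2, with 15.17 and 11.66 in MyoD + Dox and 16.61 and 17.34 in the uninduced cells. Its value on Control 2 is below background, so the distance from that array is not an exact size. Dcn, the small matrix proteoglycan decorin, had 17.31 and 7.15 in Control and 15.23 and 9.46 in MyoD + Dox. Sfrp2, a secreted Wnt modulator, had 15.67 and 6.92 against 14.00 and 13.03. In the other direction, Csrp3, a muscle stretch-sensing LIM protein, had 6.56 and 12.26 in Control and 8.41 and 7.55 in MyoD + Dox, and Ankrd2, a stretch-responsive ankyrin repeat protein, had 7.49 and 14.10 against 10.09 and 9.26. In each of these genes the MyoD + Dox arrays lay between the Control arrays, so the sign of the difference depends on the Control array.

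**Figure D2:**
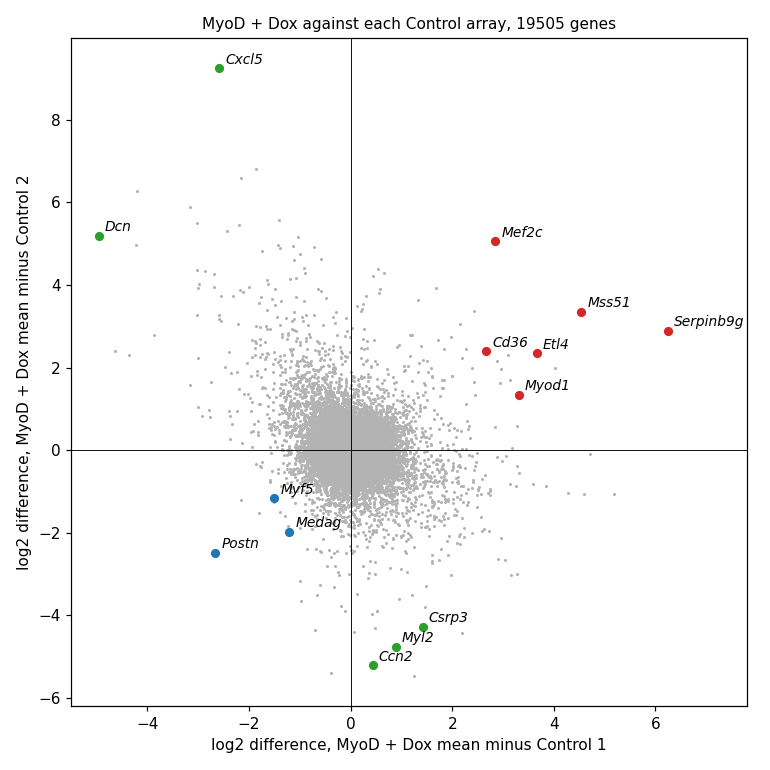
Log2 difference of the MyoD + Dox mean from Control 1 (horizontal axis) and from Control 2 (vertical axis) for all 19505 genes (grey), with 14 genes marked. Genes in red lie above both Control arrays and genes in blue below both, such as Serpinb9g and Postn, while genes in green have opposite signs against the 2 Control arrays, such as Cxcl5 and Csrp3.

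Muscle differentiation genes were between the Control arrays. All 10 skeletal muscle markers, which include Des, Ckm and the embryonic myosin heavy chain Myh3, had both MyoD + Dox arrays between Control 1 and Control 2. The share was 30.2% over all genes, but 79.1% over genes at least 2-fold apart in the Control pair. The markers had a wide Control pair, so their place between its arrays follows largely from that width. Their mean log2 signal was 14.10 and 16.35 in Control, 14.05 and 11.98 in the uninduced cells and 15.33 and 15.42 in MyoD + Dox. The median log2 difference was 0.16 over the list, 1.28 from Control 1 and -0.85 from Control 2, beside 0.00 over all genes. Actc1, the cardiac actin of young muscle, had 14.53 and 17.47 in Control and 15.79 and 15.07 in MyoD + Dox. Chrna1, the acetylcholine receptor subunit of the muscle membrane, had 14.08 and 15.77 against 15.22 and 15.68.

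The same place was seen for the embryonic and fetal muscle genes, of which 13 of 15 lay between the Control arrays, and for the genes of calcium handling and the triad, with 16 of 21. In neither list did a member pass. The median log2 difference of the first list was 0.26, from 1.08 against Control 1 to -0.76 against Control 2, and that of the second 0.34, from 1.40 to -0.60, so that the sign of both turns with the Control array. Myl2, the slow and ventricular regulatory myosin light chain, had 5.55 and 11.20 in Control and 6.75 and 6.15 in MyoD + Dox. Its values on Control 1 and MyoD + Dox 2 are below background. Trdn, the triadin of the sarcoplasmic reticulum, had 9.71 and 11.31 in Control and 11.24 and 12.78 in MyoD + Dox, and Ryr1, its calcium release channel, had 6.82 and 10.48 against 9.47 and 10.72. Both overlapped.

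Of 39 measured adult sarcomere genes, 22 lay between the Control arrays, 7 above both and 1 below both. Their median log2 difference was 0.52, from 1.78 against Control 1 to -0.48 against Control 2. Besides Mybpc1, Tcap and Myot passed as higher and Tpm3 as lower, but Tcap was below background on all arrays. Myot, which encodes the Z-disc protein myotilin, was below background on both Control arrays and at 5.33 and 7.09 in MyoD + Dox, only the second of which is above background, and it did not pass without MyoD + Dox 2 or without either Control array. Tpm3, a tropomyosin of slow muscle and of the cytoskeleton, had 16.13 and 16.11 in Control and 15.65 and 15.53 in MyoD + Dox, a narrow log2 difference of -0.53 (SE 0.18, unadjusted p = 0.0296) that did not pass with any array left out. Myh4, the fast myosin heavy chain IIb, lay above both Control arrays, at 10.72 and 11.83 against 13.22 and 13.12, but with 11.29 and 7.76 in the uninduced cells the spread was wide (log2 difference 1.89, SE 1.11, unadjusted p = 0.140). Tnnc2, the fast troponin C, had 10.66 and 11.97 against 12.94 and 12.32.

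**Figure D3:**
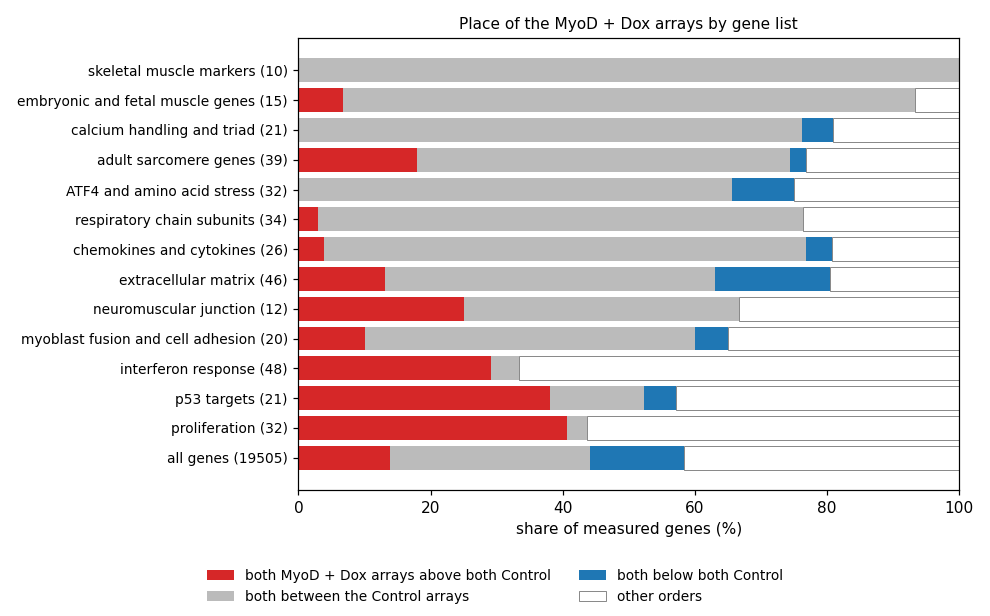
Share of the measured genes of 13 lists, and of all genes, by the place of the MyoD + Dox arrays against the Control arrays. The horizontal axis is percent of genes and the number measured is in parentheses. All 10 muscle markers fall between the Control arrays, whereas 40.6% of the proliferation genes, 38.1% of the p53 targets and 29.2% of the interferon genes fall above both, against 13.9% of all genes.

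Among 20 genes of myoblast fusion and cell adhesion, Jam2, an adhesion molecule of the immunoglobulin family, was the only one that passed. Its log2 signal was 14.38 and 14.37 in Control, 14.64 and 14.44 in the uninduced cells and 15.07 and 15.25 in MyoD + Dox, a difference of 0.79 (SE 0.20, unadjusted p = 0.00794), which did not pass without MyoD + Dox 2. Mymk, the fusogen myomaker, had 17.16 and 18.36 in Control and 18.02 and 18.36 in MyoD + Dox, and Mymx, the fusogen myomixer, had 8.55 and 10.66 against 9.61 and 9.29. Neither separated the groups. Vcam1, a receptor for integrins, had 15.14 and 9.38 in Control and 14.25 and 12.73 in MyoD + Dox.

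The 8 membrane-associated genes that the study singled out were chosen on these samples and are no independent evidence of a direction. All 8 had positive differences, with a median of 0.93, but 1 lay above both Control arrays, Myot, and the median was 2.26 from Control 1 and -0.16 from Control 2. Cav3, the muscle caveolin, had 4.70 and 9.52 in Control, 4.40 and 4.58 in the uninduced cells and 8.73 and 10.11 in MyoD + Dox. Its log2 difference of 2.31 (SE 1.49) was 4.72 without Control 2, but the value on Control 1 is below background. Trim72, a protein of membrane repair, had 11.07 and 14.28 against 13.74 and 14.52. Dysf, the membrane repair protein dysferlin, had 6.43 and 9.74 against 8.25 and 8.66.

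All 12 genes of the neuromuscular junction had positive differences, 3 lay above both Control arrays (25%, against 13.9% of all genes) and 2 passed as higher (1.60% of all genes did). The median of 0.51 was 1.23 from Control 1 and -0.14 from Control 2, so its sign turns with the Control array. Lrp4, the agrin receptor, had 11.63 and 11.91 in Control and 12.19 and 13.24 in MyoD + Dox (log2 difference 0.94, SE 0.37, unadjusted p = 0.0447). It was 0.42 and did not pass without MyoD + Dox 2, was 1.47 without MyoD + Dox 1 and did not pass without Control 1. Chrne, the adult receptor subunit, passed but was below background on all arrays. Musk, the receptor kinase that Lrp4 activates, had 12.45 and 14.62 against 13.87 and 14.67 and overlapped.

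Interferon response genes had a median log2 difference of 1.16 over 48 measured genes, which was 0.49 from Control 1 and 1.72 from Control 2. Only 23 of the 48 were above background on both Control arrays, and 32 on both MyoD + Dox arrays. With signals raised to the array background the median was 0.80. Of the 48 genes 44 had a positive difference. Above both Control arrays lay 14 (29.2%, against 13.9% of all genes) and below both 0 (14.3% of all genes). The genes that passed numbered 5, all of them higher, and 1.60% of all genes passed as higher. Mx2, a dynamin-like antiviral GTPase, was below background on both Control arrays and at 7.72 and 6.50 in MyoD + Dox, at least 2.08-fold higher. Ifih1, a sensor of double-stranded RNA, had 7.61 and 6.85 in Control, 9.72 and 9.17 in the uninduced cells and 10.11 and 7.98 in MyoD + Dox (log2 difference 1.81, SE 0.71). Herc6, Xaf1 and Rtp4 were the other 3, with log2 differences of 1.30, 1.73 and 2.20.

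The median was 0.26 without MyoD + Dox 1 and 1.93 without MyoD + Dox 2. The mean log2 signal of the 48 genes was 7.52 and 6.42 in Control, 8.77 and 8.73 in the uninduced cells and 9.01 and 7.22 in MyoD + Dox, so that MyoD + Dox 2 lay below Control 1. Ifit1, an RNA-binding antiviral protein, shows this pattern, with 6.30 and 5.36 in Control, 10.02 and 10.34 in the uninduced cells and 10.63 and 6.81 in MyoD + Dox. Its value on Control 2 is below background. Oasl2 had 9.10 and 6.85, 11.96 and 11.89, and 12.53 and 9.04. None of the 5 passing genes passed without MyoD + Dox 1. Their log2 differences were then 0.63 for Mx2, 0.70 for Xaf1, 0.75 for Ifih1, 0.79 for Herc6 and 0.86 for Rtp4. Herc6, which was 0.74 without Control 2, Ifih1, Xaf1 and Rtp4 also did not pass without that array, nor did Mx2 without Control 1. Without MyoD + Dox 2 the differences were 1.86 for Mx2, 2.77 for Xaf1, 2.88 for Ifih1, 1.81 for Herc6 and 3.54 for Rtp4. Mx2 was below background on both Control arrays and Rtp4 on Control 2, so no log2 difference given for them is an exact size. Both groups of transduced cells, induced or not, exceeded the Control mean, and the part of the virus or of blasticidin selection was not tested.

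Of 21 measured targets of p53, which answers DNA damage and other stress, 4 passed, all higher, and 1.60% of all genes passed as higher. Of the 21, 20 had a positive difference, with a median of 0.58 (0.69 from Control 1 and 0.29 from Control 2). Above both Control arrays lay 8 (38.1%, against 13.9% of all genes) and below both 1 (4.76%, against 14.3%). Relative to the Control mean, the median over the list was 0.16 and 0.36 on the uninduced arrays and 0.35 and 0.75 on the MyoD + Dox arrays, so that MyoD + Dox 1 was no higher than the second uninduced array. Ccng1, a cyclin G that p53 induces, had 15.62 and 15.89 in Control, 16.20 and 16.13 in the uninduced cells and 16.75 and 17.21 in MyoD + Dox. Its log2 difference of 1.22 (SE 0.24, unadjusted p = 0.00249) passed with any one array left out. Mdm2, the ligase that degrades p53, had 13.95 and 14.39, 14.53 and 14.54, and 14.95 and 15.40 (log2 difference 1.01, SE 0.26).

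Trp53inp1, a p53-induced nuclear protein, had 10.15 and 9.74 in Control and 10.86 and 11.48 in MyoD + Dox, but the uninduced cells, at 10.86 and 11.53, were as high. Aen, an apoptosis-enhancing nuclease, had 8.88 and 9.44 against 9.76 and 10.52. None of Mdm2, Trp53inp1 and Aen passed without MyoD + Dox 2, where the difference of Aen was 0.60 in place of 0.98, nor did Aen pass without Control 1. Cdkn1a, the cell cycle inhibitor p21, had 17.31 and 18.37 in Control and 18.16 and 18.67 in MyoD + Dox and overlapped.

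Of 32 measured S phase and mitosis genes 29 had a positive difference. Above both Control arrays lay 13 (40.6%, against 13.9% of all genes) and below both 0 (14.3% of all genes). The genes that passed numbered 2, all higher, and 1.60% of all genes passed as higher. The median log2 difference was 0.39, and it was 0.24 without Control 2, 0.44 without Control 1, 0.59 without MyoD + Dox 1 and 0.19 without MyoD + Dox 2. Their mean log2 signal was 9.38 and 9.17 in Control, 9.60 and 9.26 in the uninduced cells and 9.40 and 9.86 in MyoD + Dox, so that MyoD + Dox 1 was close to Control 1. Mki67, the proliferation antigen Ki-67, had 12.82 and 12.08 in Control and 13.15 and 13.46 in MyoD + Dox (log2 difference 0.86, SE 0.30, unadjusted p = 0.0290), and it was 0.49 and did not pass without Control 2, nor without either MyoD + Dox array. Cenpe, a motor protein of the kinetochore, had 9.89 and 9.79 against 10.31 and 10.55 and did not pass without Control 2 or without MyoD + Dox 2. Plk1, a mitotic kinase, lay above both Control arrays on both MyoD + Dox arrays, with a log2 difference of 0.64 (SE 0.28, unadjusted p = 0.0636).

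**Figure D4:**
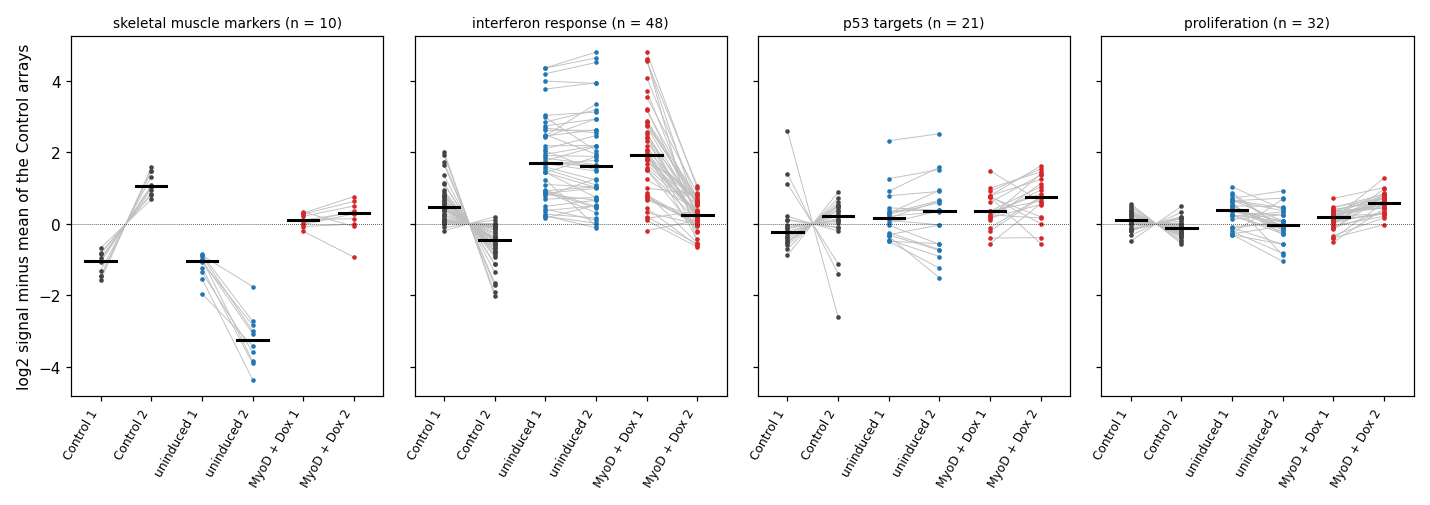
Log2 signal of each member of 4 gene lists minus its mean over the 2 Control arrays (vertical axis), on each of the 6 arrays. Points are genes, grey lines join a gene's 2 values within a group and black bars are medians over the list. The muscle marker medians of MyoD + Dox, 0.11 and 0.30, fall between the Control medians of -1.05 and 1.05, and the interferon medians of MyoD + Dox are 1.93 and 0.26.

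Among the E proteins and inhibitors of MyoD, Id1 and Id2 were higher in MyoD + Dox. Id1 had 10.97 and 11.43 in Control, 12.20 and 11.79 in the uninduced cells and 12.60 and 12.87 in MyoD + Dox. The log2 difference of 1.53 (SE 0.27, unadjusted p = 0.00140) passed with any one array left out. Id2 had 10.74 and 11.19 against 11.61 and 11.73 (log2 difference 0.70, SE 0.24), which did not pass without Control 1 or without either MyoD + Dox array. Id3 had 9.90 and 5.35 in Control, of which the second is below background, and 8.99 and 9.52 in MyoD + Dox, between the Control arrays. The list as a whole had a median of -0.13 over 19 genes. Above both Control arrays lay 3 (15.8%, against 13.9% of all genes) and below both 4 (21.1%, against 14.3%).

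Foxo1, a fork head factor that restrains muscle growth, had 8.09 and 8.38 in Control, 8.48 and 8.12 in the uninduced cells and 9.50 and 9.68 in MyoD + Dox. Its log2 difference of 1.35 (SE 0.23, unadjusted p = 0.00131) passed with any one array left out. Of the other 14 fork head and atrophy genes 0 passed. Trim63, the muscle ubiquitin ligase MuRF1 that Foxo factors activate, had 9.15 and 12.07 in Control and 9.60 and 9.93 in MyoD + Dox.

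Cxcr4, the receptor for the chemokine Cxcl12 on muscle precursor cells, had 9.05 and 8.67 in Control, 9.12 and 8.90 in the uninduced cells and 9.99 and 11.16 in MyoD + Dox (log2 difference 1.72, SE 0.41, unadjusted p = 0.00616). It was 1.14 without MyoD + Dox 2. Of 19 muscle precursor genes, Cxcr4 and Eya4, a phosphatase and transcriptional coactivator, were the 2 that passed, and 11 lay between the Control arrays. Eya4 had 11.27 and 10.73 against 11.55 and 11.84 and was 0.43 without Control 2, in place of 0.70, and it did not pass then or without either MyoD + Dox array. Cd34 had 15.46 and 9.40 in Control and 13.55 and 12.73 in MyoD + Dox.

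In the growth factor list, 1 receptor was higher and 1 ligand lower. Tgfbr1, the type I receptor for TGF-beta, had 9.45 and 9.91 in Control and 10.28 and 10.60 in MyoD + Dox (log2 difference 0.76, SE 0.25), and Tgfb2, one of its ligands, had 10.63 and 11.62 against 10.04 and 10.24 (log2 difference -0.98, SE 0.36). Tgfbr1 did not pass without Control 1 or MyoD + Dox 2, and Tgfb2 was -1.48 without Control 1 and -0.49 without Control 2, where it did not pass, nor without either MyoD + Dox array. The median over 34 growth factor genes was -0.07, from -0.43 against Control 1 to 0.03 against Control 2.

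The 46 extracellular matrix genes did not move one way. Besides Postn, Col8a1 and Col11a1 passed as lower and Lamb1 as higher, 8 genes lay below both Control arrays and 6 above, and the median was 0.04, from -0.32 against Control 1 to 0.21 against Control 2. Col8a1, a short-chain collagen, had 6.83 and 6.71 in Control and 6.11 and 5.49 in MyoD + Dox and did not pass without MyoD + Dox 2. The value of Col8a1 on MyoD + Dox 2 is below background. Lamb1, the laminin beta 1 chain of the basement membrane, had 10.55 and 10.11 against 10.95 and 11.12, and 11.15 and 11.47 in the uninduced cells. The Lamb1 difference of 0.70 did not pass without Control 2 or without either MyoD + Dox array, and it ranged from 0.48 to 0.92 when single arrays were left out. Col11a1 was below background on all arrays. Ccn2, a matricellular target of YAP, had 8.73 on Control 1, 14.37 on Control 2 and 9.33 and 9.0 in MyoD + Dox, and it was among the genes that passed after adjustment without Control 1.

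Besides Cd36, Gyg, the glycogenin that primes glycogen, passed among 33 genes of muscle energy metabolism, with 6.56 and 6.79 in Control and 7.26 and 8.31 in MyoD + Dox (log2 difference 1.10, SE 0.37). It was 0.58 and did not pass without MyoD + Dox 2, nor did it pass without Control 1. The median over the list was 0.13, from 0.43 against Control 1 to -0.16 against Control 2. Of 32 genes of the ATF4 and amino acid stress response, 26 had negative differences, with a median of -0.21, but 21 lay between the Control arrays and the median was 0.34 from Control 1 and -1.11 from Control 2. Nat10, an RNA acetyltransferase of ribosome biogenesis, had 8.67 and 8.67 in Control, 9.21 and 8.91 in the uninduced cells and 9.49 and 9.49 in MyoD + Dox (log2 difference 0.82, SE 0.20, unadjusted p = 0.00723). Its arrays agreed so closely within each group that it was the only gene to pass after adjustment by the methods' t-test.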

How the data were processed

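RNA of C2C12 cells was hybridised to 6 Clariom S mouse arrays (3 groups of 2), and samples were grouped by the submitters' labels. The authors deposited a linear signal intensity per probe set, normalised between arrays, and log2 of it was taken. Affymetrix Expression Console is named in the submitters' processing notes, without its settings. The labels name Trizol for RNA extraction and the study's methods a column kit. Of 28846 probe sets, 19572 had 1 gene symbol in the platform annotation, all of which matched a RefSeq gene, 0 had several and 9274 had none. The probe set with the highest mean was kept for each of 55 genes with several, which left 19505 genes. Dim genes were kept. Background was taken per array as the 90th percentile over 23 background probe sets, and for a gene below it on both arrays of a group only a bound is given ("at least"), the bright group's mean against the background mean of the dim group or the gene's own level if higher. The number of arrays limits the precision.

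Groups were compared with limma 3.58.1 in R 4.3.3 (lmFit, eBayes, two-sided tests) with all 6 arrays in the fit, and p-values were adjusted over all genes by Benjamini-Hochberg at a threshold of 0.05. The comparison, its 38 gene lists and the rule for named genes were chosen with earlier results of these data known. Lists were written from textbook knowledge, apart from the study's own membrane-associated genes, and are described by counts and medians with no test. Named genes were Myod1, the 15 highest and 15 lowest differences among genes that passed, did not overlap and were above background in the brighter group, the 8 widest gaps each way, the 6 widest differences each way within the Control pair, up to 4 passing and 2 other members of each list, and genes passing after adjustment under an alternative. Predicted genes and chemosensory receptors were passed over. Myog, Mymk, Mymx, Des, Ckm, Myh3, Mef2b, Xaf1, Dysf, Cdkn1a, Tnnc2, Serpinb9d, Lyrm4, Mpp6, Fat1 and Pcx fall outside this rule and were picked once their values had been seen.

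Alternatives tried were quantile normalisation, subtraction of array medians, signals raised to the array background, averaged probe sets, leaving out the 40% of genes with the lowest mean, eBayes with trend and robust, a fit of the 4 arrays only, a block for the replicate number, the methods' t-test and leaving out each array. The steps were tested on simulated data.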

Additional observations from a re-analysis of the deposited data

How the results depend on the processing

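No gene passed an adjusted p of 0.05 in limma with all arrays (573 at an unadjusted p under 0.05), with quantile normalisation, subtracted medians, signals raised to background, mean probe sets, a filter on dim genes, trend and robust, or the 4 arrays alone. The lowest adjusted p ranged from 0.00777 to 1 over the alternatives. The methods' t-test passed 1 gene after adjustment, Nat10, and 351 genes higher and 352 lower before it. Without the 40% lowest genes, the higher genes numbered 163 and the lower 99 before adjustment, a change that fewer genes tested enters into. With the 4 arrays alone 237 were higher and 168 lower, with fewer arrays for the spread. With each array left out, the genes passing after adjustment numbered 0 to 169, those higher at an unadjusted p 201 to 1473 and those lower 105 to 1212. The highest of these numbers came without Control 1, the lowest before adjustment without MyoD + Dox 2. Leaving out an uninduced array was added after seeing the data.

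Genes with both MyoD + Dox arrays above both Control arrays numbered 10811, and below both 1054, when signals were raised to the background of each array, since genes below background then take the differences between the array backgrounds. With an array left out, which leaves fewer arrays to order, they numbered 5063 to 7158 and 5379 to 7415.

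The labels do not say whether arrays of the same replicate number belong together, and the values do not settle it. The correlation was positive between the groups compared here and negative with the uninduced group. The deviations of the first arrays from their group means correlated at 0.50 between Control and MyoD + Dox, -0.45 between Control and uninduced and -0.10 between MyoD + Dox and uninduced, across 8662 genes, which are not independent. With the replicate number as a block, the higher genes numbered 298 and the lower genes 217 before adjustment and 0 passed after adjustment. With the block on the 4 arrays alone, added after seeing the data, 325 were higher and 183 lower.

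Of 341 list medians under alternatives 27 moved by more than the spread between arrays. Without the lowest genes, the median of the acute phase genes was 0.23 and that of the osteoblast and chondrocyte markers -0.66. The second is the log2 difference of Acan alone. Raised signals gave 0.50 for the p53 targets and 0.0760 for the osteoblast and chondrocyte markers, which are mostly below background. That 0.0760 is also the median of all genes with raised signals, where genes below background take the difference between the array backgrounds. The cause of the other shifts was not tested. With each array left out the medians ranged from -0.85 to 1.28 for skeletal muscle markers, -0.34 to 1.09 for myogenic regulatory and Mef2 factors, -0.10 to 0.61 for fusion and adhesion, -0.60 to 1.40 for calcium handling, -0.16 to 0.31 for membrane repair and caveolae, -0.0731 to 0.23 for acute phase genes, -0.80 to 1.49 for fork head factors and atrophy ligases, -0.44 to 0.29 for mitochondrial ribosomal proteins, -1.11 to 0.34 for ATF4 and amino acid stress, 0.29 to 0.75 for p53 targets, -0.30 to 0.0667 for cholesterol synthesis, -0.33 to 0.29 for ribosome biogenesis and -0.17 to -0.0319 for osteoblast and chondrocyte markers.

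Of the 64 genes in the rule that passed, 25 passed with any one of the 4 arrays left out. Without MyoD + Dox 2, 32 did not pass, against 20 without MyoD + Dox 1, 17 without Control 2 and 13 without Control 1. By the methods' t-test 3 of the 15 highest and 3 of the 15 lowest genes had an unadjusted p under 0.05. That test gave an unadjusted p of 0.171 for Myod1, 0.131 for Serpinb9g, 0.0739 for Mef2c and 0.0550 for Mss51. Raised signals turned the sign of Acan (0.0318), Col11a1 (0.0760) and Myf6 (0.0760), which are at or below background. Where a gene was below background on an array, as Cav3, Cxcl5, Id3 and Myl2 were, its differences below are not exact sizes. Of the genes that had not passed, some changed sign with an array left out. Their log2 differences ranged from -2.04 to 0.90 for Actc1, -4.42 to 2.19 for Ankrd2, -0.10 to 4.72 for Cav3, -5.20 to 0.43 for Ccn2, -2.32 to 3.74 for Cd34, -0.31 to 1.37 for Chrna1, -1.34 to 1.60 for Ckm, -4.28 to 1.42 for Csrp3, -1.39 to 4.90 for Cxcl12, -2.59 to 9.25 for Cxcl5, -4.96 to 5.19 for Dcn, -0.87 to 1.29 for Des, -1.28 to 2.02 for Dysf, -1.12 to 3.17 for H2-T23, -0.65 to 3.91 for Id3, -0.20 to 1.03 for Mef2a, -0.72 to 1.15 for Mef2d, -0.35 to 1.82 for Musk, -0.83 to 1.08 for Myh3, -4.76 to 0.89 for Myl2, -0.16 to 1.03 for Mymk, -1.21 to 0.90 for Mymx, -1.35 to 1.26 for Myog, -0.39 to 3.27 for Ryr1, -2.16 to 6.60 for Sfrp2, -2.31 to 0.61 for Trim63, -0.15 to 3.06 for Trim72 and -1.65 to 4.11 for Vcam1.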

Other observations

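Of 18 genes of MHC class I presentation 9 lay between the Control arrays, 3 above both and 0 below both, with a median log2 difference of 0.30, which was -0.30 from Control 1 and 0.90 from Control 2. H2-T23, a non-classical class I molecule, had 11.28 and 6.98 in Control and 11.22 and 9.10 in MyoD + Dox. Of 26 chemokines and cytokines 19 lay between the Control arrays and 0 passed, with a median of 0.22, from -0.39 against Control 1 to 0.89 against Control 2. Cxcl12, the ligand of Cxcr4, had 16.74 and 10.45 in Control and 15.85 and 14.84 in MyoD + Dox. Of 18 acute phase, complement and prostaglandin genes 0 passed and the median was 0.11, and of 19 matrix proteases and inhibitors 0 passed, 4 lay below both Control arrays and the median was -0.17.

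Few members of the membrane and signalling lists passed, and over all genes only 2.94% did. Of 21 genes of membrane repair and caveolae 13 lay between the Control arrays, 3 above both and 0 passed, with a median of 0.29. Of 15 genes of the dystrophin glycoprotein complex 1 passed, Pomt2, a glycosyltransferase of dystroglycan, which was lower, with 8.46 and 8.13 in Control and 7.40 and 7.78 in MyoD + Dox. It did not pass without Control 1 or without either MyoD + Dox array. Of 18 Notch pathway genes 0 passed, with a median of 0.10, and Hey1, a Notch target, had 6.72 on Control 1, 10.52 on Control 2 and 6.76 and 6.48 in MyoD + Dox. Of 17 genes of cell cycle exit and D cyclins 0 passed and the median was 0.16.

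Of 34 respiratory chain subunits 25 lay between the Control arrays, and the median of -0.04 was 0.47 from Control 1 and -0.60 from Control 2. Of 60 mitochondrial ribosomal proteins 37 lay between them, and the median of -0.04 was 0.29 from Control 1 and -0.44 from Control 2. In the second list 1 gene passed, Mrps35, at 6.55 and 6.62 in Control and below background in MyoD + Dox, at least 1.37-fold lower. It did not pass without Control 2 or without either MyoD + Dox array. The median was 0.05 for 27 genes of the unfolded protein response and chaperones, 0.03 for 19 NRF2 targets, -0.06 for 19 genes of cholesterol synthesis and -0.05 for 42 of ribosome biogenesis, the last from 0.29 against Control 1 to -0.33 against Control 2. Of 21 ribosomal protein genes 17 had a negative difference, with a median of -0.15 and 0 passing.

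Markers of other cell types were mostly near background. Of 9 measured adipocyte markers 1 was above background on both Control arrays and 2 on both MyoD + Dox arrays, and their mean log2 signal ranged from 4.54 to 4.95 in Control and from 4.59 to 4.81 in MyoD + Dox. Plin1, a lipid droplet protein, passed but was below background on all arrays. Of 7 macrophage markers 1 and of 7 endothelial markers 0 were above background on both arrays of either group. Of 9 osteoblast and chondrocyte markers 1 was above background on both arrays of either group, Sox9, at 12.23 and 13.18 in Control, with a log2 difference of -0.81 (SE 0.42, unadjusted p = 0.105). Acan, the cartilage proteoglycan aggrecan, passed as lower but was not above background on both arrays of either group. Of 8 neuron markers 3 were above background in both groups and 0 passed, with a median of -0.22.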
